A study of Rattus norvegicus with 71 samples.

Results

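AMPA and kainate receptors are the ionotropic glutamate receptors that carry most of the fast excitatory current between neurons. Their subunits are encoded by 9 rat genes, which were found in the deposited count table by gene symbol: the 4 AMPA receptor genes Gria1, Gria2, Gria3 and Gria4 and the 5 kainate receptor genes Grik1, Grik2, Grik3, Grik4 and Grik5. All 9 were among the 17494 genes of the table, and all 9 passed every filter on low counts. They are described here in 71 Sprague-Dawley rats of 27 litters, each sampled at postnatal day 2 (PND2) as one coronal brain slice of 150 um. By the sample labels and the study's methods, the slice held the hippocampus together with cortical and subcortical tissue. The design text of the series names frontal cortex and hypothalamus instead, and what each slice held was not checked beyond the gene lists below.

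AMPA receptors assemble as tetramers of GluA1 to GluA4, the proteins of Gria1 to Gria4, and the GluA2 subunit, once its transcript has been edited, keeps calcium out of the channel. Kainate receptors assemble from GluK1, GluK2 and GluK3, which can form channels by themselves, and from GluK4 and GluK5, which bind kainate with higher affinity and need one of the other subunits to make a working channel. Around birth, the subunit composition of both families is still changing in the forebrain.

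The question of the study was whether the brain transcriptome of offspring differs when the mother carries the autoantibodies of maternal autoantibody-related autism (MARA). Dams had been immunized with peptides of brain antigens in adjuvant, and control dams had received saline in adjuvant, so that exposure was a property of the dam and all littermates shared it. In the first series of sample titles, 12 controls (3 litters) were set beside 16 animals exposed to LDHA/B+CRMP1+STIP1 (4 litters). In the second series, 12 controls (4 litters) were set beside 8 animals of CRMP1+CRMP2 (4 litters), 9 of LDHA/B+CRMP1+STIP1 (5 litters), 6 of CRMP1+GDA (3 litters) and 8 of STIP1+NSE (4 litters). The names are those of the target proteins: lactate dehydrogenase, collapsin response mediator proteins, stress-induced phosphoprotein, guanine deaminase and neuron-specific enolase. All animals were wild type, 35 were male and 36 female, and the title series have the same make-up as the experimental batches of the study's methods, which were processed and sequenced separately. As 3 of the 4 antibody patterns occur in the second series alone, comparing them with all 24 controls sets animals of one series against animals of both.

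Neurons were present in every slice, with 6606 to 9142 CPM (counts scaled to a common library size) summed over 7 general neuronal genes, but the slices of the 2 series did not hold the same tissue. The 6 genes of a list for thalamic neurons summed to between 25.5 and 65.8 CPM in the 28 animals of the first series and to between 52.3 and 777 CPM in the 43 animals of the second. In controls, the choroid plexus list (6 genes) summed to 3.66 to 111 CPM in the first series and 137 to 2850 CPM in the second, and the striatal list (6 genes) to 153 to 641 CPM in the first and 91.8 to 205 CPM in the second. Certain libraries stood apart within the second series. The thalamus list of 4 exposed animals lay within the range of the first series (1 of CRMP1+CRMP2, 1 of STIP1+NSE and both LDHA/B+CRMP1+STIP1 animals of litter 9_4), and 12 animals (11 in the second series and 1 control in the first) held over 10 CPM of pineal gland genes or of Hox genes, which mark hindbrain and spinal cord. The fits of fold changes were repeated without these animals, a choice made after the data had been seen, and the correlations and litter spreads were not. In whole slices, fewer cells of a type and less RNA per cell cannot be told apart.

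Compared per kilobase of exon, as RPKM (CPM per kilobase of exon model), Grik5 was the most abundant of the 9 transcripts, with 91.1 ± 8.48 RPKM (SD, n = 71). Grik5, which encodes the high-affinity subunit GluK5, exceeded Gria1 in 71 of 71 libraries. Gria1, whose GluA1 protein is brought to synapses during plasticity, and Gria2 were next at 63.4 ± 6.35 and 62.9 ± 11.8 RPKM. Their order was not settled, since Gria1 was the higher in only 38 of 71 libraries. Both exceeded the remaining 6 subunits in every library.

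The middle of the order was held by Grik3 (23.9 ± 5.23 RPKM), Grik2 (20.8 ± 3.59), Gria3 (20.4 ± 2.90) and Gria4 (19.3 ± 5.94). Grik2 and Grik3 encode GluK2 and GluK3, and Gria3 and Gria4 encode GluA3 and GluA4. Grik3 exceeded Grik2 in 52 of 71 libraries, Grik2 exceeded Gria3 in 39, and Gria3 exceeded Gria4 in 41, so that neighbours in this block differed by less than their spread over animals. Grik1, the gene of GluK1, followed at 11.04 ± 1.53 RPKM, and Grik4, the gene of the other high-affinity subunit GluK4, was lowest at 8.14 ± 2.30 RPKM. Grik1 lay below Gria4 in 68 of 71 libraries and above Grik4 in 68. Gria4 and Grik4 varied most between animals, with coefficients of variation of 30.8% and 28.2%, while Gria1 and Grik5 varied least, at 10.02% and 9.31%.

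These levels depend on the annotated exon length of each gene, which ran from 2980 bases for Gria1 to 6856 bases for Gria2. Even the lowest member was well counted: Grik4 had between 373 and 1319 counts per library, and Gria2 between 8684 and 17160.

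**Figure D1:**
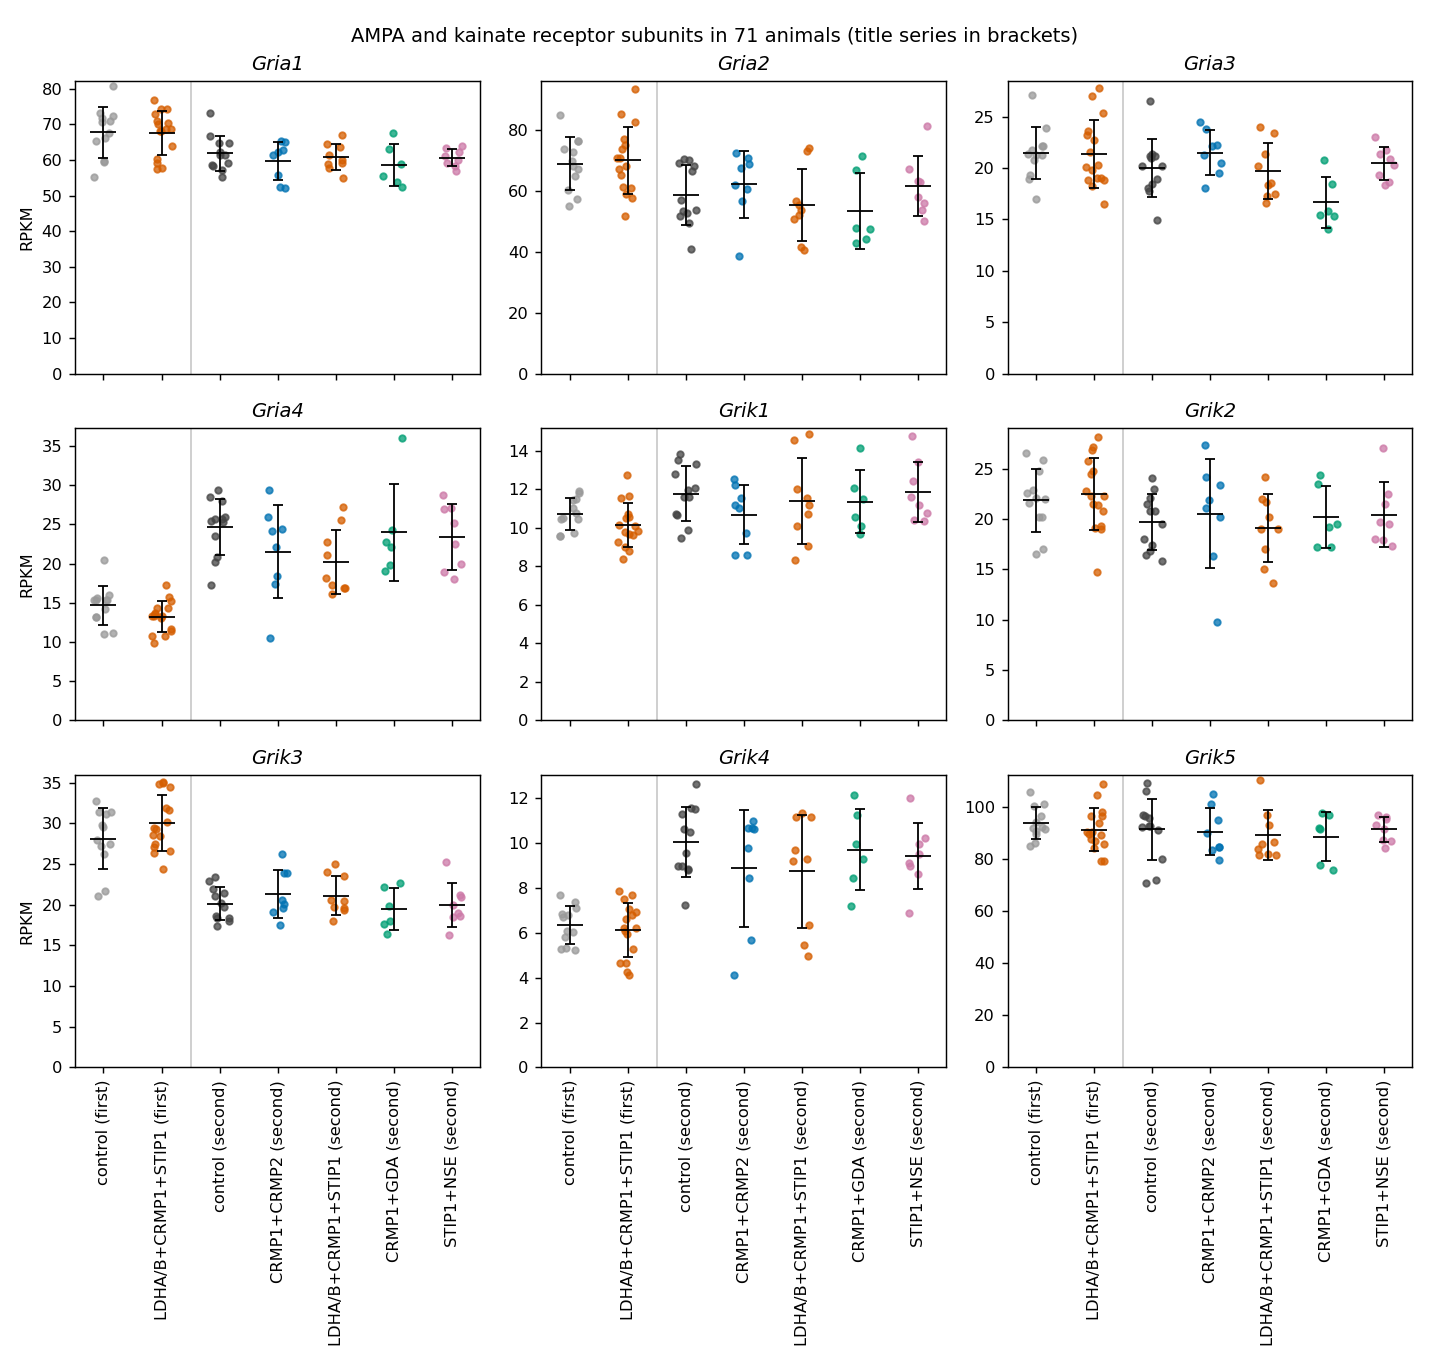
RPKM of each subunit (vertical axes, from 0) in 71 animals, by autoantibody group and title series (horizontal axis); points are animals, and bars give the mean and SD. The means of Gria4 and Grik4 sit higher, and those of Grik3 lower, in the 5 groups of the second series than in the 2 groups of the first.

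The order itself changed between the title series. In the 28 animals of the first series, Grik3 had the highest mean of the middle block (29.2 RPKM) and Gria4 the lowest (13.8 RPKM), below Gria3 in 28 of 28 libraries. In the 43 animals of the second series, Gria4 headed that block at 22.8 RPKM and exceeded Grik3, at 20.4 RPKM, in 31 of 43 libraries. Grik5 stood first and Grik4 last in both.

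Among AMPA transcripts, Gria1 and Gria2 each supplied close to equal shares of the summed RPKM, 38.4% ± 3.04 and 37.6% ± 3.70 (SD, n = 71). Gria3 made up 12.3% ± 1.37. Gria4 made up 8.05% ± 1.28 in the first series (n = 28) and 14.1% ± 2.31 in the second (n = 43), while the share of Gria2 was 40.2% ± 2.61 in the first and 35.9% ± 3.30 in the second. Among kainate transcripts, Grik5 made up 58.8% ± 2.48 (n = 71). The share of Grik3 was 18.2% ± 1.60 in the first series and 13.5% ± 1.08 in the second, and that of Grik4 was 3.89% ± 0.650 and 6.18% ± 1.11. The summed kainate RPKM was 0.937 ± 0.0651 times the summed AMPA RPKM (n = 71), with nearly the same mean in the first series (0.933) and the second (0.941). These shares and the ratio rest on the annotated exon lengths. In CPM, with no division by length, Gria2 averaged 431 and Gria1 189 (n = 71). The kainate to AMPA ratio in CPM, averaged over control litters, was 0.669 in the first series and 0.664 in the second.

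**Figure D2:**
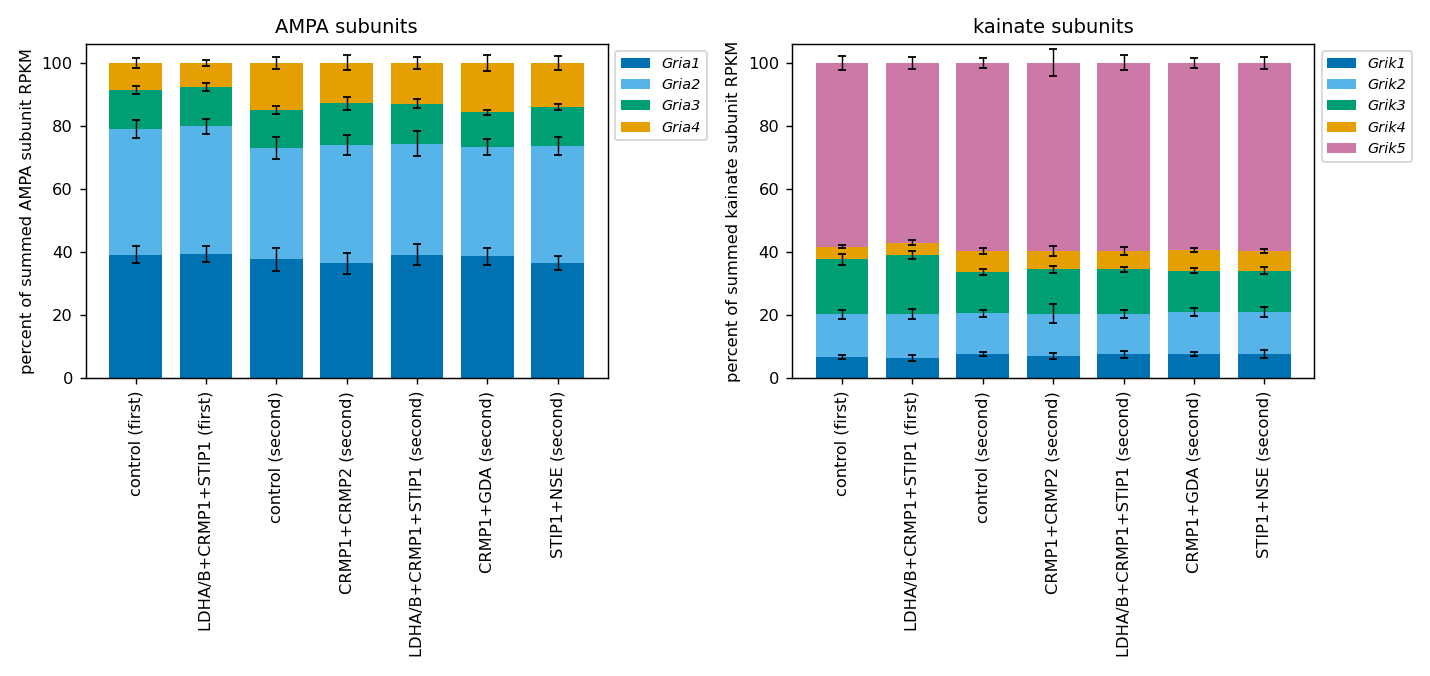
Mean share of each subunit in the summed RPKM of its family (vertical axes, percent), by group and title series; segments are subunits and error bars the SD of each share over animals. The Gria4 segment is 8.52% in first-series controls and 14.9% in second-series controls.

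Whether the title series differed with no exposure involved was tested in the 24 controls, with sex as covariate (edgeR quasi-likelihood test, Benjamini-Hochberg adjustment over all 12565 genes tested, adjusted p under 0.1 taken as called). Of the 9 subunits, 3 were called higher and 3 lower in the second series. This is to be read against a background of 41.5% of all genes called, 21.3% higher and 20.2% lower. The median log2 fold change of the 9 subunits was -0.10, beside 0.00 for all genes.

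Gria4 differed most. Its lowest, median and highest RPKM were 10.97, 15.3 and 20.5 in the 12 controls of the first series and 17.3, 25.5 and 29.4 in the 12 of the second, and 10 second-series controls lay above every control of the first. The log2 fold change was 0.75 (SE 0.087, adjusted p = 3.3e-07, edgeR). GluA4, its product, forms fast channels and is used by many interneurons and by thalamic and hindbrain neurons in the mature brain.

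Grik4 ran the same way. It had 5.22, 6.40 and 7.71 RPKM (lowest, median, highest) in the first series and 7.24, 10.04 and 12.6 in the second, with 11 of 12 second-series controls above all of the first. The log2 fold change was 0.66 (SE 0.084, adjusted p = 1.2e-06, edgeR). Grik1 was called with a small change of 0.14 (SE 0.063, adjusted p = 0.093, edgeR), from a median of 10.6 RPKM to one of 11.8, with 6 of 12 second-series controls above all of the first.

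Grik3 ran the other way. Its values were 21.04, 28.7 and 32.7 RPKM in the first series and 17.4, 19.96 and 23.4 in the second, and 7 second-series controls lay below every control of the first. The log2 fold change was -0.48 (SE 0.072, adjusted p = 1.2e-05, edgeR). Gria2 (-0.23, SE 0.089, adjusted p = 0.045) and Gria1 (-0.13, SE 0.055, adjusted p = 0.071) were also called lower in edgeR. For Gria2, 6 of 12 second-series controls lay below all of the first, and for Gria1 1 of 12. For Gria3, Grik2 and Grik5 the estimates were -0.10, -0.15 and -0.03, with 95% intervals of -0.26 to 0.05, -0.32 to 0.02 and -0.16 to 0.10, and none was called.

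Littermates share a dam, and the 24 controls came from 7 litters. When limma took the litter as a random effect, or with counts summed per litter (edgeR), 3 of 9 subunits remained called (Gria4, Grik4 and Grik3), where the genes called over the whole table numbered 2813 and 1895 in place of 5218. Their log2 fold changes on summed counts were 0.72, 0.63 and -0.51. The calls of Gria1, Gria2 and Grik1 were lost. The fold changes were -0.13 and -0.14 for Gria1, and -0.28 and -0.30 for Gria2, no smaller than over animals, while those of Grik1 were 0.10 and 0.09. Without the 1 control of the first series that carried Hox transcripts (60.4 CPM over 7 Hox genes), Gria4 and Grik4 stood at 0.80 and 0.68, and the call of Grik1 was lost (adjusted p = 0.11, edgeR).

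Promoter windows of the subunits that moved most between the series are printed here because Gria4 and Grik4 moved together and Grik3 against them. RefSeq's table for the build GRCr8 held a window for 6 of 9 members, each running from 250 bases before to 50 bases after the annotated start. Gria4 lies at chr8:10319832-10320131 on the minus strand, Grik4 at chr8:52102014-52102313 on the minus strand and Grik3 at chr5:143052192-143052491 on the plus strand. The sequences run 5′ to 3′ along the gene, with each match to the GC box letters GGGCGG (or CCGCCC on the other strand) in capitals.
Gria4: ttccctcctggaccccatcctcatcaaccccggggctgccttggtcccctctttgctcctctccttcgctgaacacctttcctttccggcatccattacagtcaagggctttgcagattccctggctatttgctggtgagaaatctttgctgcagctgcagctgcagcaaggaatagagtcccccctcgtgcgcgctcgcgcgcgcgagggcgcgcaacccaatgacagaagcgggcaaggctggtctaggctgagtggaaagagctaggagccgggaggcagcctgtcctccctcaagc
Grik4: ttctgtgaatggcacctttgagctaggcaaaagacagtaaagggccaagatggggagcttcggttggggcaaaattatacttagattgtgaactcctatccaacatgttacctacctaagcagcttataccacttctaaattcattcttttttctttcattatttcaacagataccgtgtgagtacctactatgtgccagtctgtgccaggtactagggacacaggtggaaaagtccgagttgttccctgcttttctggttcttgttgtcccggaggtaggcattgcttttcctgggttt
Grik3: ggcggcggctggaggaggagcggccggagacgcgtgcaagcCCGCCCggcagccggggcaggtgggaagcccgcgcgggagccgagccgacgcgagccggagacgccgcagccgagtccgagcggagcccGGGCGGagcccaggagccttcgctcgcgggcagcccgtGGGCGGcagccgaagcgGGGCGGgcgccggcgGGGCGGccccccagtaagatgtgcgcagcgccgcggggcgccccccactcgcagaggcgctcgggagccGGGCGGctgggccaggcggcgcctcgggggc
The Grik3 window was rich in G and C (82.3%), with 49 CpG dinucleotides and 6 matches to the GC box. Gria4 (60.3%, 15 CpG) and Grik4 (44%, 4 CpG) held 0 matches. Of the windows not printed, that of Grik5 held 2 matches and those of Grik1 and Grik2 held 0. Over all 33469 windows of the table the median G and C content was 51.7% and 33.1% held a GC box match. TATAAA (14.2% of all windows, either strand) and TGACGTCA (1.83%) had 0 matches in the 3 windows printed. A match of letters is a description and no evidence of binding.

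On the build rn7 of the counts, Gria4 lies on chromosome 8 (1562118 to 2034979), as does Grik4 (42905056 to 43205077), and Grik3 lies on chromosome 5 (137767865 to 137984307). Gria3 is X-linked (120238988 to 120504106). An exon of Gria2 (chromosome 2, 165949383 to 166069510) overlaps the annotated microRNA gene Mir2985 on the same strand.

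The same control comparison showed how far neighbouring tissue differed. Of the 6 genes of the thalamus list, 5 were higher in the second series, led by the transcription factors Tcf7l2 (log2 fold change 5.22) and Lhx9 (4.30). All 6 choroid plexus genes and 6 of 7 hypothalamic genes were higher. Of the 6 striatal genes 5 were lower, and of the 7 cortical and hippocampal excitatory genes 5 were lower and 1, Prox1 of the dentate gyrus, was higher at 2.05. The subunit changes and the tissue make-up moved together across the series, and their parts cannot be told apart in these slices.

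The partners of the 9 subunits were read from 8 lists (43 genes, of which 40 were in the table and tested; Shisa9, Gsg1l and Frrs1l were not analysed here). In the control comparison, 11 of 40 were called higher and 10 lower, again beside 41.5% of all genes. The AMPA receptor auxiliary subunits, which set the trafficking and gating of the channel, had 0 higher and 5 lower of 11: Syndig1 fell by 0.84 on the log2 scale, Cnih3 by 0.54, Cacng3 by 0.28, Cnih2 by 0.26 and Shisa7 by 0.21. The kainate receptor auxiliary subunits Neto1 and Neto2 fell by 0.66 and 0.24. Of the postsynaptic and trafficking partners, Grip1 fell by 0.16 and Dlg1 by 0.11, Pick1 stood at 0.10, and the editing enzyme gene Adar fell by 0.14 (all called).

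Of the pentraxins, cerebellins and C1q-like organisers, 6 were called higher, and Nptx1 (median 61.5 CPM in the first series and 58.8 in the second) and C1ql3 (18.5 and 17.1 CPM) were not called. C1ql2, whose protein recruits kainate receptors at hippocampal mossy fibre synapses, rose by 2.12 on the log2 scale, from a median of 1.54 CPM to one of 6.63. The neuronal pentraxins Nptx2 (0.79) and Nptxr (0.38), which cluster AMPA receptors, and the cerebellins Cbln1 (1.75), Cbln2 (1.14) and Cbln4 (1.86), which bind delta glutamate receptors, were called higher as well. So were all 3 vesicular glutamate transporters: Slc17a6, the form typical of thalamic and other subcortical neurons, by 2.09, Slc17a8 by 0.65 and Slc17a7, the cortical form, by 0.25. Abhd6, which limits AMPA receptor assembly, was called higher by 0.13. Of these 21 genes, 12 kept the call with the litter as a random effect and 11 on counts summed per litter.

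Gria4 and Grik4 followed the thalamus list within the series too. Over 27 litter means, with the mean of each series removed, Pearson's r with the log2 summed thalamus list was 0.79 for Gria4 and 0.86 for Grik4 (Spearman's rho 0.88 and 0.75; adjusted p = 0.00039 for each r over 117 relations of a member with a tissue list, 100000 permutations). In this and the other permutation tests of correlations, litters were exchanged across both series and all groups. The litter means of the thalamus list ran from 32.3 to 49.2 CPM in the first series and from 58.5 to 643 CPM in the second. Within the 7 litters of the first series r was 0.88 and 0.68, and within the 20 of the second 0.82 and 0.89. Without the 2 litters farthest from the median of the list it was 0.80 and 0.87. Distance was taken over both series before their means were removed, so both litters left out were of the first series. Litter 9_4, the lowest of the second series at 58.5 CPM, stayed in, and its weight in r was not tested. Both genes ran against the list of cortical and hippocampal excitatory genes, with r of -0.75 for Gria4 and -0.81 for Grik4 (adjusted p = 0.00039 and 0.00058, permutation test). Litters share these lists and libraries, and CPM values of one library are parts of one whole. The thalamus sum also rests mainly on Tcf7l2, with a median of 214 CPM over 71 animals beside 288 CPM for the sum. Prkcd, the next highest of the list, had a median of 21.8 CPM, and r without Tcf7l2 was not computed.

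**Figure D3:**
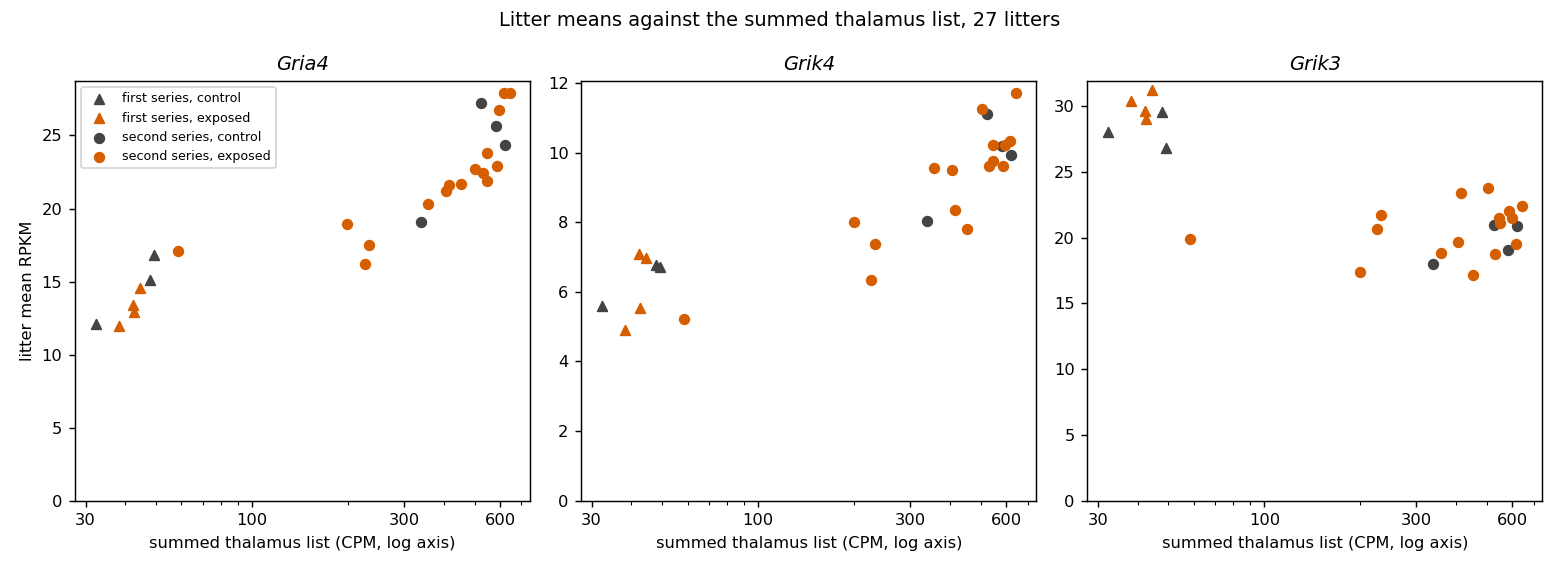
Litter means of Gria4, Grik4 and Grik3 (vertical axes, RPKM from 0) against the summed thalamus list (horizontal axis, CPM, log scale) in 27 litters; triangles are the first series, circles the second, and colours separate control from exposed litters. Gria4 and Grik4 rise with the list in both series, while Grik3 is separated by series and had r of -0.03 and 0.21 with the list inside them.

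Grik3 had an r of 0.20 with the thalamus list (adjusted p = 0.49, permutation test). It passed the threshold with the radial glia and astrocyte list (r = -0.59, adjusted p = 0.014), the striatal list (r = -0.54, adjusted p = 0.029) and the hypothalamic list (r = -0.53, adjusted p = 0.031), all by permutation test over 27 litter means. Gria2 ran against endothelial genes (r = -0.68, adjusted p = 0.0021, permutation test), mainly in the second series (r = -0.72, and -0.14 in the first). Gria1 followed the list of inhibitory neurons and the ganglionic eminence (r = 0.61, adjusted p = 0.0095, permutation test; 0.94 in the first series and 0.49 in the second). Grik4 (r = 0.64, adjusted p = 0.0076) and Gria4 (r = 0.53, adjusted p = 0.031, permutation test) followed that list as well, and both ran against the endothelial list (r = -0.56 and -0.50) and the microglial list (r = -0.50 and -0.55), each with an adjusted p under 0.05. In all, 23 of 117 relations had an adjusted p under 0.05, and 17 of the 23 had the same sign in both series. The share of such relations among other genes was not computed.

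The 4 second-series animals with little thalamic signal carried low values of the same subunits. Their Grik4 was 4.12 to 6.90 RPKM, beside 5.68 to 12.6 in the other 39 animals of the second series, and their Gria4 was 10.6 to 18.01 RPKM beside 16.2 to 35.98. Grik2 was low as well, at 9.80 to 17.98 RPKM beside 15.8 to 27.3. So was Gria2, with a median of 41.1 RPKM (38.6 to 56.2) beside 58.0 (40.9 to 81.6). Grik3 (16.2 to 20.4 RPKM beside 16.4 to 26.2) and Grik5 (81.4 to 90.04 beside 70.8 to 110.3) overlapped widely.

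Subunits also varied together. Of 36 pairs, 19 had an adjusted p under 0.05 over 27 litter means, all with a positive r. The share of passing pairs among other genes was not computed, so the count is no result about these subunits. The closest pair was Gria2 with Grik2 (r = 0.88, rho 0.86, adjusted p = 0.00018, permutation test; r = 0.59 in the first series and 0.90 in the second). Next came Gria4 with Grik4 (r = 0.84, rho 0.82, adjusted p = 0.00018, permutation test; 0.77 and 0.85). Gria2 also ran with Gria3 (r = 0.69) and Grik3 (r = 0.67), while Gria3 had an r of -0.05 with Gria4 and 0.03 with Grik4. The closest pair and the next each held an AMPA and a kainate subunit, which is a description and no result about the receptor families.

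**Figure D4:**
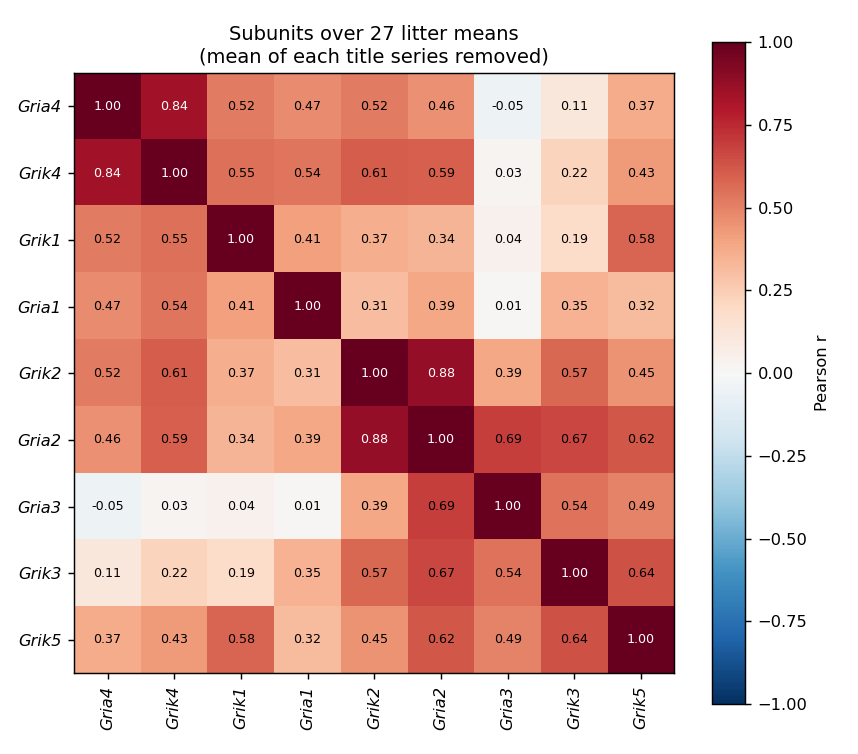
Pearson's r for each pair of subunits over 27 litter means of log2 CPM after the mean of each title series was removed (colour scale from -1 to 1, values printed in the cells). The highest off-diagonal values are Gria2 with Grik2 (0.88) and Gria4 with Grik4 (0.84).

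The genes most like each subunit were sought among 12477 genes over 71 animals, after the mean of each group in each series was removed. Gria4 and Grik4 had the same nearest gene, Dpp6, an auxiliary subunit of A-type potassium channels, with r = 0.86 and 0.82. The next were Gprasp1 for Gria4 (r = 0.85) and Otof for Grik4 (r = 0.81). Gria2 was most like Kif21a (r = 0.92) and Tnrc6a (r = 0.91), and Grik2 was most like Gria2 itself (r = 0.84) and Zfhx2 (r = 0.82). Gria1 was most like Ptprg (r = 0.76) and Nrp2 (r = 0.75), and Gria3 most like the chromatin genes Kmt2e and Ash1l (r = 0.84 for each). Grik3 was nearest to Srgap3 (r = 0.79) and Tnrc18 (r = 0.78), and Grik5 to MAST1 (r = 0.86) and Shisa7 (r = 0.85), itself an AMPA receptor auxiliary gene. Grik1 had the lowest r with its nearest genes, Lgi3 and Spock1, at 0.63 and 0.62. Within the first series these were 0.13 and 0.27, and within the second 0.79 and 0.75. These are descriptions over animals that share dams and libraries, with no test.

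Exposure to MARA autoantibodies was tested first over all patterns, 47 exposed animals against 24 controls with the first surrogate variable, an estimate of unlabelled variation made from the counts, as covariate. No subunit was called: 0 of 9 by edgeR, with 0.0321% of 12477 genes called, and 0 of 9 by DESeq2. At an unadjusted p under 0.05 there was 1 of 9 (Gria4), beside 10.3% of all genes. Gria4 had a mean of 104 CPM in exposed animals and 107 in controls, with a log2 fold change of -0.13 (95% interval -0.23 to -0.03, adjusted p = 0.35). The other 8 estimates lay between -0.09 (Grik4) and 0.03 (Grik3).

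LDHA/B+CRMP1+STIP1 was the only pattern present in both series, so that its comparison with controls could be made separately in each series. In the first series, Gria4 had a lowest, median and highest level of 10.97, 15.3 and 20.5 RPKM in 12 controls and of 9.88, 13.3 and 17.3 in 16 exposed animals. In the second, the values were 17.3, 25.5 and 29.4 RPKM in 12 controls and 16.2, 18.1 and 27.2 in 9 exposed animals. The exposed animals tended to the lower end in both series, and the groups overlapped in both.

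The log2 fold change of Gria4 was -0.15 in the first series (95% interval -0.31 to 0.01, adjusted p = 0.92) and -0.29 in the second (95% interval -0.51 to -0.07, adjusted p = 0.87, edgeR). The effects of the series differed by -0.12 (SE 0.14), with an adjusted p near 1 in the interaction test. With all 24 controls and the surrogate variable, the estimate was -0.16 (SE 0.053, unadjusted p = 0.0036, adjusted p = 0.38, edgeR). Members called numbered 0 of 9 in each of these fits, with 0.0157% of genes called in the fit over both series, 0.0161% in the first series, 0 of 12570 genes (0%) in the second and 0.11% for the interaction. At an unadjusted p under 0.05 the members numbered 1 of 9 (7.17% of genes), 0 of 9 (5.45%), 1 of 9 (5.62%) and 0 of 9 (3.05%), Gria4 being the 1 in both cases. DESeq2 called 0 of 9 in the first 3 of these comparisons and was not run for the interaction.

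The Gria4 estimate in LDHA/B+CRMP1+STIP1 moved with the libraries that stood apart. In the second series it was -0.22 without the 2 exposed animals of litter 9_4 that had little thalamic signal, and -0.14 with the log2 thalamus list as a covariate (adjusted p near 1 in both). Without the animals over 10 CPM in Hox or pineal genes it was -0.42 in the second series (adjusted p = 0.16, edgeR). Over both series it was then -0.25 and passed the threshold (adjusted p = 0.045, edgeR), with 215 of all genes called against 2 in the full set. Of the 9 exposed animals of the second series, these fits lacked MAR_C3_18, MAR_C3_27 and MAR_C3_28, at 610, 473 and 615 CPM of the thalamus list. They kept both animals of litter 9_4, at 64.7 and 52.3 CPM. The fit over both series also lacked the first-series control IgG1_2. Grik4 stood at -0.21 (95% interval -0.50 to 0.09) in the second series and at -0.04 without the 2 animals of litter 9_4. The median of the summed thalamus list was 394 CPM in the exposed animals and 550 CPM in the controls of that series, and its part in these values was not tested further.

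**Figure D5:**
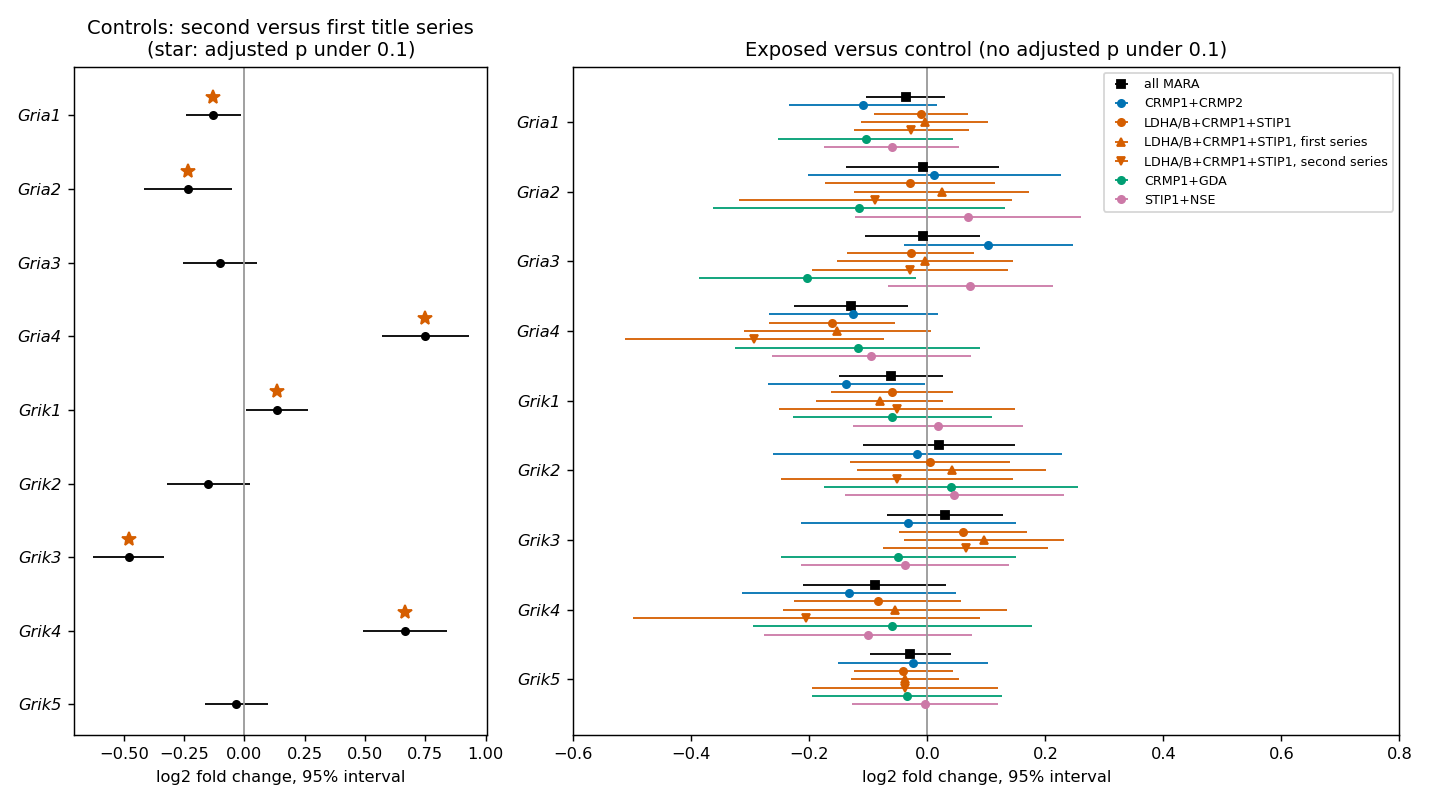
Log2 fold changes (horizontal axes) of the 9 subunits with 95% intervals from edgeR: on the left, second versus first series in 24 controls, with a star where the adjusted p is under 0.1; on the right, exposed versus control for all MARA, each pattern, and LDHA/B+CRMP1+STIP1 within each series. Intervals on the left leave 0 for Gria4, Grik4 and Grik3 by wide margins, and on the right the lowest bound is -0.51 (LDHA/B+CRMP1+STIP1 in the second series) and the highest 0.26 (STIP1+NSE).

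For CRMP1+CRMP2, 0 of 9 subunits were called by edgeR (11.4% of 12691 genes called, 4.83% higher and 6.56% lower) and 0 of 9 by DESeq2. At an unadjusted p under 0.05 there was 1 of 9 (24.4% of genes), Grik1, with a log2 fold change of -0.14 (95% interval -0.27 to -0.0045, adjusted p = 0.19). Grik1 had a lowest, median and highest level of 8.58, 11.1 and 12.6 RPKM in the 8 exposed animals. In the 12 controls of the second series these were 9.50, 11.8 and 13.8 RPKM, so the lowest exposed value lay below all of those controls. The median of the 9 log2 fold changes was -0.03. The estimate of Gria4, adjusted for the surrogate variable, was -0.13 (adjusted p = 0.27), although its plain mean was 118 CPM in exposed animals and 107 in the 24 controls of both series. Against the second-series controls alone it was -0.19 (SE 0.14). The adjusted estimate stood at -0.04 without the animal with little thalamic signal, while without litter 9_11 it was called lower at -0.22 (adjusted p = 0.099, edgeR).

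Of the 40 partner genes, 4 were called in CRMP1+CRMP2, all lower, in a fit that called 11.4% of all genes (6.56% lower), so that the count is no result about the partners. They were Nptx2 (-0.38, SE 0.098, adjusted p = 0.026), Nsf, which recycles AMPA receptors (-0.26, SE 0.079, adjusted p = 0.047), Cacng8, an AMPA receptor auxiliary subunit (-0.22, SE 0.073, adjusted p = 0.073), and Dlg4, the PSD-95 scaffold (-0.16, SE 0.038, adjusted p = 0.016), all in edgeR. In the same fit the 5 pineal genes and the 6 choroid plexus genes were all called higher. Their levels reached 249 and 3318 CPM in a single CRMP1+CRMP2 animal, the one that also had the lowest Gria4 of the second series (10.6 RPKM). Without the animals high in Hox or pineal genes, 0 of the 4 were called and all genes called fell from 1445 to 1. Of the 8 CRMP1+CRMP2 animals, that fit lacked MAR_C3_2, MAR_C3_12 and both animals of litter 9_11. The log2 fold changes there were -0.38 for Nptx2, -0.20 for Nsf, -0.17 for Cacng8 and -0.12 for Dlg4. Without litter 9_6, 0 of the 4 were called, and with the litter as a random effect also 0 of the 4 (adjusted p = 0.13 for Dlg4, the smallest). The log2 fold changes moved little under the random effect, to -0.39 for Nptx2, -0.25 for Nsf, -0.21 for Cacng8 and -0.16 for Dlg4. In the other exposure comparisons 0 of the 40 partners were called by edgeR, and between 1 and 5 had an unadjusted p under 0.05.

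For CRMP1+GDA, 0 of 9 subunits were called by edgeR (0 of 12641 genes, 0%) and 0 of 9 by DESeq2, and 1 of 9 had an unadjusted p under 0.05 (3.65% of genes). That gene was Gria3. Its 6 exposed animals had a lowest, median and highest level of 14.1, 15.6 and 20.8 RPKM, beside 14.9, 20.2 and 26.5 in the 12 controls of the second series. The 4 lowest exposed animals came from the litters 9_3 and 9_18, and both animals of litter 9_8 lay inside the middle of the controls, at 18.5 and 20.8 RPKM. The log2 fold change was -0.20 against all controls (95% interval -0.39 to -0.02, adjusted p near 1, edgeR) and -0.26 (SE 0.089) against the controls of the second series alone.

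In STIP1+NSE, 0 of 9 subunits were called by edgeR (0.0474% of 12660 genes) and 0 of 9 by DESeq2, and 0 of 9 had an unadjusted p under 0.05 (3.19% of genes). The estimates ran from -0.10 (Grik4) to 0.07 (Gria3), both opposite in sign to the plain means over all 24 controls. Those means were 31.2 CPM in exposed animals and 27.2 in controls for Grik4, and 105 and 107 CPM for Gria3. Against the second-series controls alone the estimates were -0.09 and 0.04. The widest interval was that of Gria2, from -0.12 to 0.26.

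A fit to the 43 animals of the second series alone asked whether any of its 5 groups differed from another, with no difference between series in it. No member was called (0 of 9, with 0.00785% of 12738 genes called), and 1 of 9, Gria3, had an unadjusted p under 0.05 (p = 0.0069, adjusted p = 0.58, edgeR F test), beside 7.78% of all genes. The group means of Gria3 were 16.6 RPKM in CRMP1+GDA, 19.7 in LDHA/B+CRMP1+STIP1, 19.97 in controls, 20.5 in STIP1+NSE and 21.5 in CRMP1+CRMP2. Of the partners, 0 of 40 were called in this fit and 3 had an unadjusted p under 0.05: Dlg4 (p = 0.015), Abhd6 (p = 0.021) and Cacng8 (p = 0.048), with adjusted p of 0.62, 0.63 and 0.64 in edgeR. The genes next in their lists were Nsf (p = 0.17), Porcn (p = 0.11) and Cacng7 (p = 0.13). In the other lists the smallest unadjusted p were those of Nptx2 (0.055) and Nptxr (0.10), Cbln1 (0.085) and Cbln2 (0.18), Adarb1 (0.092) and Adar (0.29), Neto1 (0.11) and C1ql2 (0.22), and Slc17a7 (0.13) and Slc17a6 (0.23), from the same edgeR F test. These exposure comparisons share control animals, and their values are not independent of each other.

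The size of what could be missed differed by gene and pattern. Over the 63 exposure estimates (9 subunits in 7 comparisons) the largest absolute log2 fold change was 0.29, and 5 of the 63 95% intervals left out 0, with no adjusted p under 0.19. The lowest bound was -0.51 (Gria4, LDHA/B+CRMP1+STIP1 in the second series) and the highest 0.26 (Gria2, STIP1+NSE). These fits took animals as replicates with no litter term, so the bounds are narrower than litters warrant. For LDHA/B+CRMP1+STIP1 in the second series, limma put the correlation within litters over all genes at 0.49. A missed threshold does not show equal levels inside these bounds.

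Subunit composition was compared per litter. The Gria2 share of AMPA RPKM, which bears on the calcium permeability of AMPA receptors, was 37.5% ± 2.93 (SD, 4 litters) in CRMP1+CRMP2, 36.9% ± 2.64 (4 litters) in STIP1+NSE, 35.4% ± 3.71 (5 litters) in LDHA/B+CRMP1+STIP1, 34.7% ± 2.90 (3 litters) in CRMP1+GDA and 34.7% ± 3.22 (4 litters) in controls of the second series. In the first series it was 40.5% ± 1.95 (4 litters) in LDHA/B+CRMP1+STIP1 and 39.9% ± 2.30 (3 litters) in controls. The kainate to AMPA ratio, averaged over litters, ran from 0.918 in second-series controls to 0.985 in CRMP1+GDA. The smallest adjusted p of the 10 comparisons was 0.86 (exact permutation test of litter means, two-sided). With 4 litters against 4, or 3 against 4, the smallest unadjusted p of the exact test is 0.029, and with 5 against 4 it is 0.0079.

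Litters differed among themselves for several subunits. After group means were removed, the SD of litter means on the log2 CPM scale was 0.30 for Grik4, 0.24 for Gria2 and 0.23 for Grik2, beside 0.16, 0.11 and 0.13 that the spread inside litters alone would give. For Grik3 the values were close to each other (0.12 and 0.11). Sex was compared last. With series and group as covariates, 0 of 9 subunits were called between 36 females and 35 males by edgeR (0.0641% of 12477 genes called) and 0 of 9 had an unadjusted p under 0.05 (4.69% of genes). The estimates ran from -0.08 (Grik4, 95% interval -0.23 to 0.06) to 0.06 (Grik1).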

How the data were processed

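Poly-A libraries of 71 slices were sequenced as paired 150-base reads. Per the labels and the study's methods, the authors aligned reads with STAR 2.5.4b to rn7 and counted them with featureCounts (version and options not given in the sources used here), and the deposited values are raw counts per gene, which sum to 24880182 to 36234952 per library. All columns had a sample (0 without). Of counts from 1 to 9, 74.5% were even, so halved counts were tried.

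CPM and RPKM used TMM factors (trimmed mean of M-values) and the deposited exon models. Tests used edgeR 4.0.16 (R 4.3.3, quasi-likelihood, FDR < 0.1) on genes with at least 1 CPM in 8 samples (MARA, sex) or over 1 CPM in 2 (others), with the first surrogate variable (sva 3.50.0) or sex as covariate. Alternatives were DESeq2 1.42.0, limma 3.58.1 with litter as a random effect, counts summed per litter, other filters and scalings, and litters left out. Scripts were tested on simulated data. Animals were the replicates, and as littermates share a dam, p-values over animals are smaller than litters warrant. Ratios and correlations used litter means.

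The members and lists were chosen with earlier results of these data known. Named were all members, the partners called or with the 2 smallest p of their list in the second series, and the 2 genes most like each member. Genes of tissue lists, and Gria3 values by litter, were named after their values were seen.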

Additional observations from a re-analysis of the deposited data

Results flagged for a closer look

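Over 36 member-by-group ranges in groups of 4 to 10 animals, 2 animals lay apart from their group by Dixon's test at the 95% level, where chance flags about 1 group in 20. In the second series, 1 CRMP1+CRMP2 animal had the lowest Gria2, at 38.6 RPKM, and the next of the 8 animals had 56.7 RPKM. The same animal held 249 CPM of pineal genes and 3318 CPM of choroid plexus genes, with 58.3 CPM of thalamic genes, the lowest of its group. In CRMP1+GDA, 1 animal had a Gria4 of 35.98 RPKM, the highest of the 71, and the next of the 6 animals had 24.3 RPKM. It held 161 CPM of Hox genes and 698 CPM of thalamic genes, the highest of its group for both. The part of this tissue in either value was not tested.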

How the results depend on the processing

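Members called numbered 0 of 9 in each exposure comparison under all alternatives run, with 2 exceptions of 1 of 9, both Gria4. They were CRMP1+CRMP2 without litter 9_11 (range 0 to 1 over litters left out) and LDHA/B+CRMP1+STIP1 without libraries high in Hox or pineal genes (1 called). For the other exposure comparisons with litters left out the range was 0 to 0. Between the control series, 6 members were called, 3 with litter as a random effect and 3 on counts summed per litter, and 4 to 6 with a litter left out. Without litter 9_10, Gria3 (-0.21) and Grik2 (-0.29) became called. No direction reversed among called values. In CRMP1+CRMP2 the 1445 genes called became 491 with title series and sex as covariates, 127 in the second series alone, 8 with litter as a random effect, 0 on summed counts and 1 without libraries high in Hox or pineal genes, and ranged from 41 (without litter 9_6) to 2889 (without 9_16). For all MARA, 4 became 16 by DESeq2 and 13 without a filter. With litter as a random effect, 0 genes were called in each of the other exposure comparisons. For LDHA/B+CRMP1+STIP1, 2 became 15 by DESeq2, 7 without a filter and 215 without libraries high in Hox or pineal genes, and ranged from 2 to 44 over litters left out. Between the control series, 5218 became 2813 with litter as a random effect and 1895 on summed counts. The causes were not tested, beyond the fewer samples of each fit. Leaving out libraries and the thalamus covariate were alternatives chosen after the data had been seen. No paired analysis was possible because exposure was given to dams and so varies between litters, and replicate numbers given in accession order only name samples. With CPM in place of RPKM, the smallest adjusted p of the ratio tests was 0.79. Without the 2 litters farthest from the median, 21 of 23 list relations and 14 of 19 pairs stayed at or past the smallest r that had passed. That distance was taken over both series before their means were removed, so a litter extreme within its own series could stay in.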
